A study of Bos taurus with 96 samples.

Results

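Muscle of 16 Holstein cows was compared between the day after calving and late pregnancy. The 32 libraries concerned, of 96 in the series, were taken by their tissue and time-point labels: 16 from late pregnancy (LP, day -18 relative to parturition) and 16 from early lactation (EL, day 1), 1 of each per cow. Of the cows, 8 carried high genetic merit for fertility (Fert+) and 8 low merit (Fert-), and both genotypes were pooled for the comparison. The tissue was semitendinosus, a muscle of the hind limb, collected by percutaneous punch, and polyadenylated RNA was sequenced. No treatment was given and no cows outside this cycle of pregnancy and calving were sampled, so the time-point cannot be told apart from the order of the biopsies or from season. Liver of the same cows and muscle at mid-lactation were also sequenced and are not described here.

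Around calving the dairy cow moves nutrients from her own tissues to the udder. Skeletal muscle is the main protein store that can be drawn on: its contractile filaments are broken down by the ubiquitin-proteasome system, in which ligases tag proteins for degradation by the 20S core and 19S cap of the proteasome, and by lysosomes, and the released amino acids serve milk protein and glucose synthesis. Glucocorticoids and low insulin favour breakdown, and muscle shifts its fuel from glucose towards fatty acids.

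Library totals ran from 15279337 to 21422737 counts at LP and from 15463987 to 19429387 at EL. Levels are given as CPM, counts in each library scaled to a common size with TMM factors, which assume that most genes do not change. The factor was higher at EL than at LP in every cow, for example 1.357 against 0.875 in cow 982. The 10 most abundant genes took a median of 29.3% of the counts at LP and 21.3% at EL. The EL library of cow 3445 stood apart in its share of mitochondrially encoded transcripts, 5.76%, below the LP libraries, which ran from 12.2% to 22.7%. The LP library of cow 419 and the EL libraries of cows 164 and 419 held counts for at least 11 of 19 genes that were nearly unread in most libraries of the series, where at most 3 of them were seen. Counts of genes without cows 164 and 419, or without cow 3445, are given where they moved by over 1.5 times or changed a call named here.

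Of 12013 genes tested, 6494 (54.1%) differed between EL and LP at an adjusted p under 0.05 in the paired edgeR quasi-likelihood test: 3396 (28.3%) rose and 3098 (25.8%) fell. A change of more than 1.5-fold was called for 728 genes (6.06%), 290 (2.41%) up and 438 (3.65%) down. In 16 of 16 cows 4.93% of the genes were higher at EL and 5.2% lower, and for 0.999% the LP and EL ranges did not overlap (0.683% with EL above and 0.316% with EL below). The median log2 fold change over all genes tested was 0.01. How the calls divide depended on the scaling: with library totals alone the median moved up by 0.36 and 7031 genes rose against 956 that fell, and with upper quartile factors 2567 rose and 3872 fell. Fold changes below are on the TMM scale, with their standard errors (SE). With 54.1% of all genes called, a call for a single gene or the share of a list is read against these percentages. Gene names were at hand for 1555 of the genes tested, of which 61.5% were called, 19.2% rose and 42.3% fell. Their median log2 fold change was -0.16. The named genes, from which all lists are drawn, thus lean more towards a fall than all genes do.

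**Figure D1:**
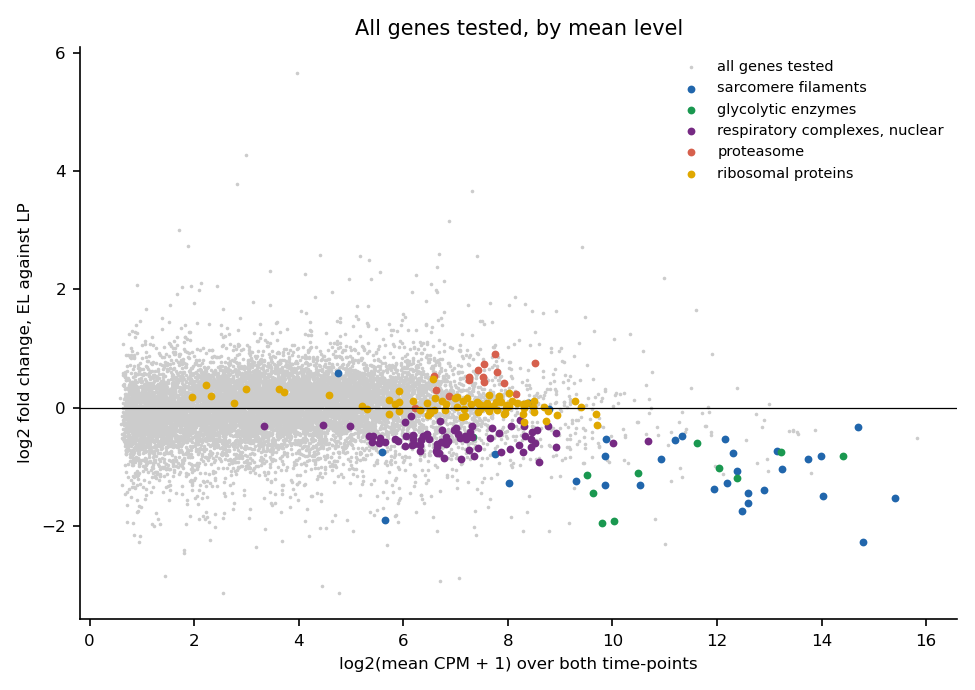
Log2 fold change from LP to EL (y axis, TMM scale) of each of the 12013 genes tested against its mean level over both time-points (x axis, log2 of CPM + 1), with 5 gene groups in colour. Most sarcomere filament genes and the glycolytic enzymes lie to the right and below 0, proteasome genes mostly above 0, and ribosomal protein genes close to 0.

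The most abundant transcripts of muscle declined. Among the 100 genes with the highest mean CPM, 72 fell, 11 rose and 17 did not pass the threshold, with a median log2 fold change of -0.47. ACTA1 (ENSBTAG00000046332), skeletal alpha-actin, the main protein of the thin filament, ran from 22183 to 62207 CPM (median 44950) at LP and from 1534 to 47584 CPM (median 7936) at EL. It was lower at EL in 16 of 16 cows, and 13 of the 16 EL libraries lay below the lowest LP library. The paired fold change was 4.84 downwards (log2 fold change -2.27 ± 0.26, adjusted p = 1.05e-06). The smallest fall was in cow 430, from 62207 to 47584 CPM.

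Thick filament genes, which code for the myosin motor, its light chains, its binding proteins and titin, declined: 15 of 16 fell and none rose, with a median log2 fold change of -1.27, and for the thin filament 13 of 16 fell and none rose, with a median of -0.79. These medians were not tested against each other. MYH1, the fast IIx myosin heavy chain, ran from 40541 to 79363 CPM (median 60509) at LP and from 2670 to 64847 CPM (median 23692) at EL. The ranges overlapped, and it fell in 15 of 16 cows (log2 fold change -1.53 ± 0.28, adjusted p = 0.000163). It was higher at EL in cow 430 alone. MYH2, the fast IIa heavy chain, went from a median of 22802 to 7990 CPM (-1.50 ± 0.24, adjusted p = 4.42e-05). The regulatory light chain MYLPF fell by 1.40 ± 0.13 and the essential light chain MYL1 by 1.62 ± 0.17 on the log2 scale, each in 16 of 16 cows. TPM1, tropomyosin 1, of the thin filament, fell by 1.75 ± 0.18. TTN, titin, the molecular spring of the sarcomere, fell by 0.33 ± 0.12 (adjusted p = 0.0298), and with library totals its value was 0.04, the opposite sign. The call for TTN was lost without cows 164 and 419. Actin and myosin genes are close copies of one another, and reads shared between copies leave their single values uncertain.

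Isoforms of both fibre types fell. Of the fast fibre isoforms 12 of 13 fell (median log2 fold change -1.40), and of the slow fibre isoforms 12 of 12 (median -0.80). With library totals 11 and 7 fell, and in Fert+ cows alone 11 and 5. Apart from MYH7B, all of these genes are also on the filament, calcium handling or Z disc lists. These counts therefore regroup falls given under those lists and are not independent of them. MYH7, the slow heavy chain (ENSBTAG00000009703), ran from 10550 to 32401 CPM (median 20273) at LP and from 5708 to 19786 CPM (median 11241) at EL. It fell in 15 of 16 cows by 0.82 ± 0.14 on the log2 scale (adjusted p = 9.46e-05). A second identifier of that name, ENSBTAG00000040053, with medians of 181 and 124 CPM, fell by 0.79 ± 0.14. Fast troponin T, TNNT3, fell by 1.44 ± 0.17 and slow troponin T, TNNT1, by 0.87 ± 0.09, and slow troponin I, TNNI1, by 0.82 ± 0.09. Slow light chains MYL2 and MYL3 fell by 1.07 ± 0.09 and 1.31 ± 0.14.

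Structural genes were divided. Of 21 genes of the Z disc, where thin filaments are anchored, 13 fell, 2 rose and 6 did not pass, with a median of -0.35 that became 0.01 with library totals. LDB3, a PDZ and LIM domain protein of the Z disc, fell by 1.25 ± 0.17 and the actin capping subunit CAPZA2 by 0.97 ± 0.08. FLNC, filamin C, and NRAP, an actin-anchoring protein, rose, with log2 fold changes of 0.33 ± 0.14 (adjusted p = 0.0498) and 0.33 ± 0.10 (adjusted p = 0.0105), and without cow 3445, or without cows 164 and 419, NRAP passed and FLNC did not. DES, desmin, the intermediate filament of muscle fibres, ran from 5788 to 9346 CPM at LP and from 6343 to 11152 CPM at EL, and its log2 fold change of 0.06 ± 0.08 did not pass (adjusted p = 0.547). Among genes of calcium handling 13 of 15 fell and none rose (median -0.65); with library totals 8 fell and 1 rose. CASQ1, the calcium buffer of the fast fibre's sarcoplasmic reticulum, went from 1924 to 4737 CPM (median 3261) at LP to 145 to 2062 CPM (median 551) at EL, 4.97-fold down (log2 fold change -2.31 ± 0.21, adjusted p = 1.16e-07). CACNG1, a subunit of the calcium channel of the T tubule, fell by 1.62 ± 0.16, and ATP2A1, the fast calcium pump, by 0.93 ± 0.14. RYR1, the calcium release channel, had a log2 fold change of -0.21 ± 0.12 (adjusted p = 0.155), with the opposite sign, 0.16, on library totals.

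**Figure D2:**
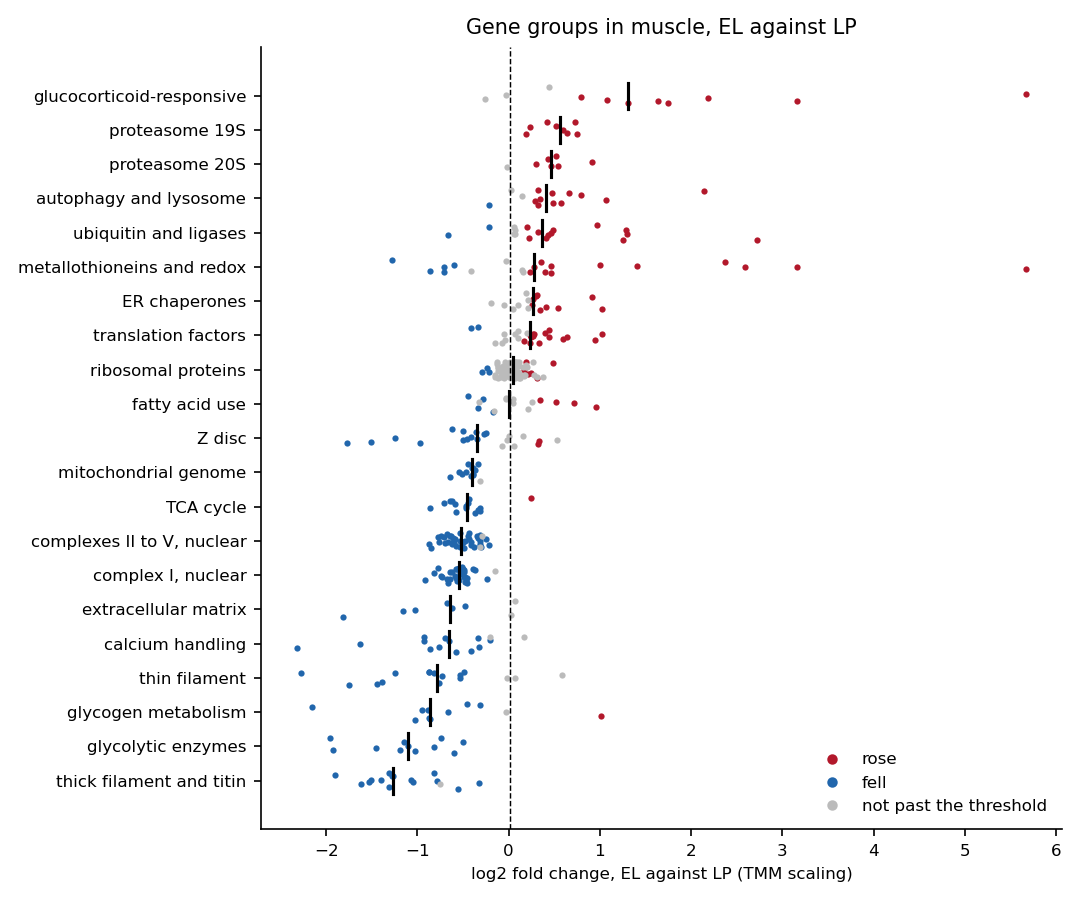
Log2 fold change from LP to EL (x axis, TMM scale) of each tested member of 21 gene groups, ordered by their median (black bar), with the median of all genes tested as a dashed line. Each point is 1 gene, coloured by its call; all members of the glycolytic group lie below 0 and all members of the proteasome 19S group above it.

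Genes that supply energy to contraction fell with the filaments. All 11 glycolytic enzymes tested fell, with a median log2 fold change of -1.10, and 6 of them fell by more than 1.5-fold. PGAM2, the muscle form of phosphoglycerate mutase, ran from 840 to 2351 CPM (median 1301) at LP and from 67.5 to 870 CPM (median 332) at EL. It was lower in 16 of 16 cows (log2 fold change -1.96 ± 0.21, adjusted p = 5.4e-07), and the ranges touched only at their ends. PGK1 fell by 1.45 ± 0.15, TPI1 by 1.10 ± 0.13, ALDOA by 0.81 ± 0.13 and G3PDH, glyceraldehyde-3-phosphate dehydrogenase, by 0.75 ± 0.12. ALDOA remained among the high values at both time-points, with medians of 26101 and 14430 CPM.

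Of 11 genes of glycogen metabolism 9 fell, 1 rose and 1 did not pass (median -0.86). PPP1R3C, which targets protein phosphatase 1 to glycogen, went from a median of 270 CPM to 56.8 CPM and fell by 2.15 ± 0.16 (adjusted p = 2.45e-08). Glycogen phosphorylase PYGM fell by 0.87 ± 0.12 and phosphoglucomutase PGM1 by 1.03 ± 0.14. The member that rose was UGP2, which makes UDP-glucose, the building block of glycogen: it ran from 216 to 681 CPM (median 316) at LP and from 462 to 1252 CPM (median 667) at EL. UGP2 was higher at EL in 16 of 16 cows, by 1.01 ± 0.10 on the log2 scale. CKM, muscle creatine kinase, which buffers ATP, ran from 11563 to 30072 CPM (median 19164) at LP and from 4201 to 19258 CPM (median 8456) at EL. It fell 2.15-fold, in 16 of 16 cows (log2 fold change -1.10 ± 0.12, adjusted p = 4.6e-07), and MB, myoglobin, the oxygen store of muscle, fell by 1.08 ± 0.11.

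Genes of the respiratory chain fell as well. Of 33 nuclear-encoded subunits of complex I, which takes electrons from NADH, 32 fell and none rose (median -0.54), and of 42 subunits of complexes II to V and cytochrome c genes 40 fell and none rose (median -0.52). With library totals 17 and 20 of them still fell and 1 and 0 rose. NDUFS1 had the lowest log2 fold change of complex I, -0.92 ± 0.11, and its levels ran from 357 to 584 CPM at LP and from 151 to 398 CPM at EL. NDUFS7 and NDUFB8 fell by 0.82 ± 0.08 and 0.77 ± 0.08, the oxidase subunit COX5A by 0.74 ± 0.08, and the ATP synthase subunits ATP5A1 and ATP5B by 0.60 ± 0.08 and 0.57 ± 0.08. Among enzymes of the tricarboxylic acid cycle 15 of 16 fell and 1, IDH2, rose (median -0.46). With library totals 6 fell and 1 rose (median -0.09). SDHA, SDHB, SDHC and SDHD are on this list and also on that of complexes II to V. SUCLA2 fell by 0.86 ± 0.09 and MDH2 by 0.62 ± 0.07, and IDH2, the NADP-dependent isocitrate dehydrogenase, rose by 0.25 ± 0.10 (adjusted p = 0.0467), a call that was lost without cow 3445.

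Of 13 protein genes of the mitochondrial genome 12 fell and none rose on the TMM scale (median -0.40), and 1 fell with library totals (median -0.04). In Fert+ cows alone, where 31.1% of all genes were called, 1 of the 13 fell, and in Fert- cows alone, where 39.7% were called, 13 did; none of them passed in the test of the difference between genotypes. ND6 fell by 0.64 ± 0.09, and COX1 went from a median of 65989 to 48478 CPM (-0.51 ± 0.10, adjusted p = 0.00029). Without cow 3445, whose EL library was low in these transcripts, 12 fell as well.

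Fuel selection genes moved in both directions, as did tested genes with a name at large, of which 19.2% rose and 42.3% fell. PDK4, the kinase that switches off pyruvate dehydrogenase and so spares glucose, ran from 184 to 3814 CPM (median 1663) at LP and from 1562 to 7697 CPM (median 3979) at EL. It was higher at EL in 15 of 16 cows, 3.15-fold (log2 fold change 1.65 ± 0.26, adjusted p = 4.24e-05), although the ranges overlapped, and the lowest LP value and the largest rise, 4.74 on the log2(CPM + 1) scale, were those of cow 430. Of 10 genes of glucose transport and pyruvate dehydrogenase control 2 rose, 5 fell and 3 did not pass (median -0.37, or 0.00 with library totals). The second that rose was PDP2, a phosphatase that switches pyruvate dehydrogenase on, at low levels with medians of 1.29 and 2.12 CPM (log2 fold change 0.80 ± 0.20). The dehydrogenase subunits DLD and PDHA1 fell by 0.65 ± 0.08 and 0.54 ± 0.12. SLC2A4, the insulin-responsive glucose transporter, ran from 63.7 to 143 CPM at LP and from 17.7 to 225 CPM at EL, and its log2 fold change of -0.45 ± 0.21 did not pass (adjusted p = 0.0793).

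Of 16 genes of fatty acid uptake and oxidation 4 rose, 4 fell and 8 did not pass, with a median log2 fold change of 0.01. With library totals 12 rose and none fell. The shares among all tested genes with a name, on the TMM scale, were 19.2% up and 42.3% down. CPT1B, which admits long-chain fatty acids to the mitochondrion, ran from 45.3 to 82.3 CPM (median 53.6) at LP and from 71.3 to 127 CPM (median 91.0) at EL. It was higher in 16 of 16 cows (0.72 ± 0.08, adjusted p = 6.67e-07). UCP3, the uncoupling protein of muscle mitochondria, went from a median of 328 to 645 CPM, 1.94-fold up (0.95 ± 0.20, adjusted p = 0.00063), and ACADVL, very long-chain acyl-CoA dehydrogenase, rose by 0.35 ± 0.07. ETFA, which passes electrons from beta-oxidation to the respiratory chain, fell by 0.45 ± 0.07. LPIN1, lipin 1, a phosphatidate phosphatase and coactivator, ran from 76.9 to 312 CPM (median 160) at LP and from 175 to 1129 CPM (median 444) at EL, and rose in 16 of 16 cows by 1.64 ± 0.23 (adjusted p = 1.21e-05). PPARGC1A, the coactivator PGC-1 alpha, ran from 13.8 to 61.9 CPM at LP and from 5.07 to 344 CPM at EL, and its log2 fold change of -0.15 ± 0.35 did not pass (adjusted p = 0.732) and had the opposite sign with library totals. ANGPTL4, an inhibitor of lipoprotein lipase, stood at -0.33 ± 0.31 (adjusted p = 0.378), also with the opposite sign on library totals.

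**Figure D3:**
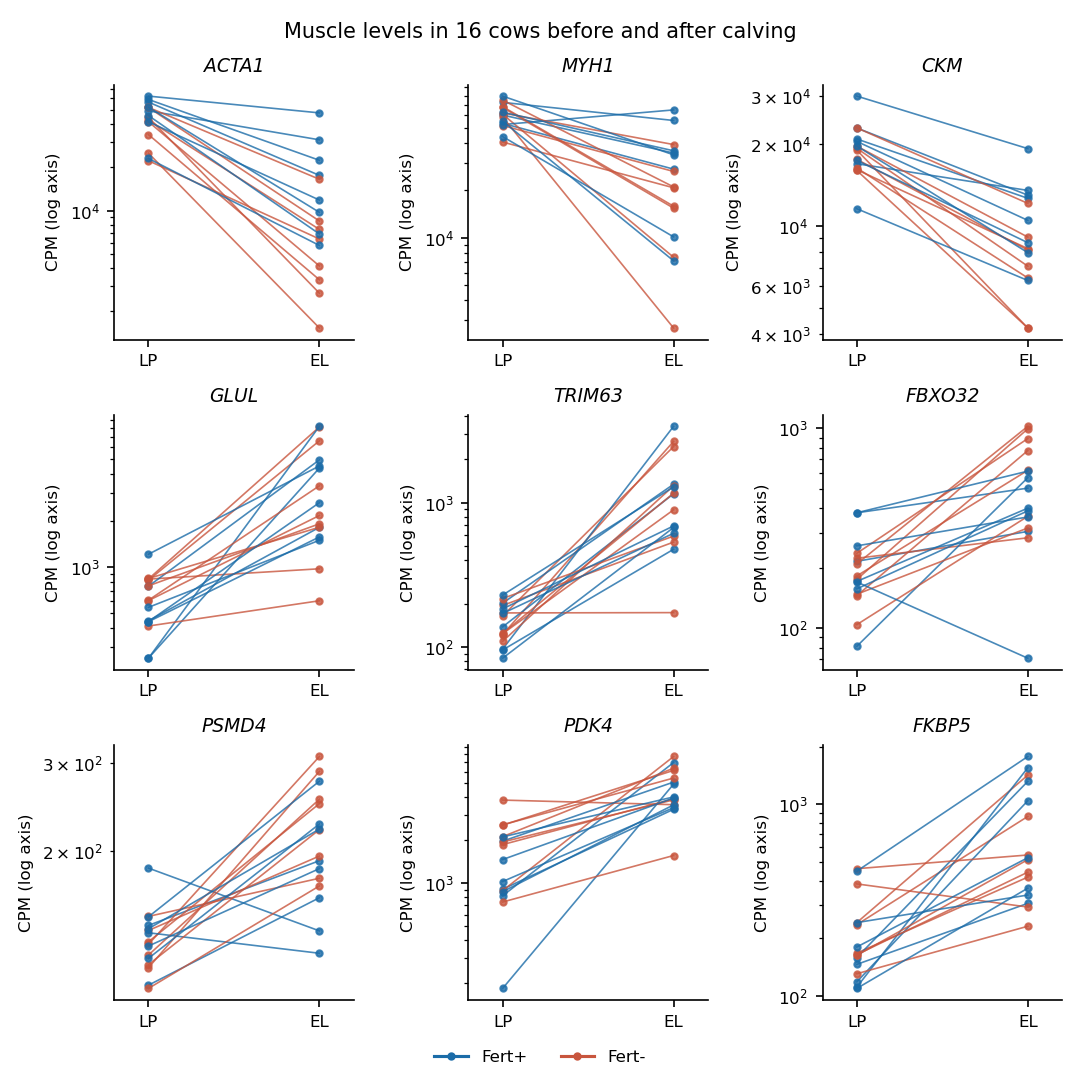
CPM (y axis, log scale, different in each panel) of 9 genes at LP and EL, with 1 line per cow (blue Fert+, red Fert-, n = 8 each). ACTA1 and CKM fell in all 16 cows and GLUL and TRIM63 were higher at EL in all 16. MYH1, PDK4, FBXO32 and FKBP5 each moved against the others in 1 cow, and PSMD4 in cows 430 and 782.

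Genes of the ubiquitin-proteasome system rose. Of 18 ubiquitin genes, muscle ligases and shuttles 12 rose, 2 fell and 4 did not pass (median 0.37), against 28.3% of all genes that rose. TRIM63, the ligase MuRF1, which tags myosin and other thick filament proteins, ran from 83.7 to 229 CPM (median 151) at LP and from 173 to 3395 CPM (median 1025) at EL. It was higher at EL in 16 of 16 cows, 6.59-fold (log2 fold change 2.72 ± 0.31, adjusted p = 1.62e-06); the ranges overlapped through cow 982, in which it differed by 0.01 on the log2(CPM + 1) scale. FBXO32, the ligase atrogin-1, ran from 81.2 to 378 CPM (median 179) at LP and from 70.8 to 1024 CPM (median 451) at EL. It rose in 15 of 16 cows, 2.43-fold (1.28 ± 0.25, adjusted p = 0.000314), and fell from 170 to 70.8 CPM in cow 3847. ZFAND5, a proteasome-stimulating zinc finger protein, rose by 1.25 ± 0.16 and NFE2L1, the transcription factor that drives proteasome genes, by 0.96 ± 0.08. NFE2L1 ran from 720 to 1249 CPM at LP and from 1383 to 2750 CPM at EL, and these ranges did not overlap. WWP1, another ubiquitin ligase, fell by 0.67 ± 0.11.

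Names were at hand for 8 of the 21 genes listed for the 19S cap and for 7 of the 14 listed for the 20S core. All 8 of the cap rose (median log2 fold change 0.56), and 6 of the 7 of the core rose and none fell (median 0.47). PSMD4, a ubiquitin receptor of the cap, ran from 106 to 185 CPM (median 131) at LP and from 125 to 309 CPM (median 208) at EL. It was higher in 14 of 16 cows, 1.56-fold (0.64 ± 0.11, adjusted p = 5.66e-05), and the ranges overlapped. PSMD2 and PSMD7 of the cap rose by 0.75 ± 0.11 and 0.73 ± 0.10, the ATPase PSMC1 by 0.60 ± 0.10, and PSMA7 and PSMA6 of the core by 0.91 ± 0.13 and 0.52 ± 0.09. Without cow 3445, and likewise without cows 164 and 419, 6 of the 8 cap subunits rose. With upper quartile factors 6 of the cap and 5 of the core rose, and with library totals 8 and 7. PSMB9, the 1 member of the immunoproteasome tested, fell by 0.42 ± 0.12 from low levels, with medians of 2.87 and 1.99 CPM.

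Autophagy and lysosome genes followed: 11 of 14 rose, 1 fell and 2 did not pass (median 0.41). GABARAPL1, which builds the autophagosome membrane, ran from 18.6 to 62.7 CPM (median 34.6) at LP and from 67.6 to 381 CPM (median 151) at EL, ranges that did not overlap (log2 fold change 2.14 ± 0.22, adjusted p = 4.18e-07). The lysosomal membrane protein LAMP2 rose by 0.80 ± 0.11 and the protease CATB, cathepsin B, by 0.66 ± 0.08. PINK1, which marks damaged mitochondria, had a log2 fold change of -0.21 ± 0.07 (adjusted p = 0.0108), with the opposite sign, 0.15, on library totals.

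Names were at hand for 12 of the 20 genes listed as known to respond to glucocorticoids, and 11 identifiers were tested. Most of these rose: 8 of 11 were called upwards, none downwards and 3 did not pass (median log2 fold change 1.31). The lowest log2 fold change of the list was -0.26. Mean CPM went from 132 at LP to 112 at EL for PER1, from 34.7 to 47.0 for SGK1 and from 96.7 to 120 for DUSP1. FKBP5, a co-chaperone of the glucocorticoid receptor, ran from 110 to 462 CPM (median 166) at LP and from 232 to 1776 CPM (median 521) at EL. It rose in 15 of 16 cows (1.63 ± 0.27, adjusted p = 5.9e-05), with overlapping ranges. GLUL, glutamine synthetase, through which muscle exports nitrogen, ran from 254 to 1207 CPM (median 605) at LP and from 601 to 8207 CPM (median 2386) at EL, 4.55-fold up and higher in 16 of 16 cows (2.19 ± 0.30, adjusted p = 1.04e-05). FOXO1, a transcription factor of the atrophy program, went from a median of 28.4 to 70.1 CPM (1.31 ± 0.32, adjusted p = 0.00258). The metallothioneins MT2 and MT1A, metal-binding proteins, showed the widest spread. MT2 ran from 5.77 to 27.5 CPM (median 11.3) at LP and from 4.87 to 1129 CPM (median 118) at EL (3.15 ± 0.59, adjusted p = 0.000255). MT1A ran from 0 to 0.696 CPM at LP and from 0.149 to 158 CPM (median 7.87) at EL, with a log2 fold change of 5.66 ± 0.69 that rests on near-absent counts at LP. The 2 metallothioneins are close copies and are also on the redox list. MT1A entered the test largely through its EL libraries, so its rise lends no support to the count of either list.

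Among genes of insulin, IGF and myostatin signalling 5 of 15 rose, 5 fell and 5 did not pass (median 0.10). Of all genes tested 28.3% rose and 25.8% fell, and of those with a name 19.2% and 42.3%. DDIT4, FOXO1 and PIK3R1 are also on the glucocorticoid list, and EIF4EBP1 is also on that of translation factors. DDIT4 and EIF4EBP1, brakes on mTOR signalling and on translation, rose by 1.08 ± 0.20 and 1.02 ± 0.10, and CISH, a feedback inhibitor of cytokine and growth hormone receptors, by 1.51 ± 0.36. MSTN, myostatin, a secreted inhibitor of muscle growth, ran from 4.66 to 27.6 CPM (median 10.7) at LP and from 0.0453 to 28.5 CPM (median 1.80) at EL, and was lower in 13 of 16 cows (-2.35 ± 0.55, adjusted p = 0.00155). SMAD7, an inhibitor of that pathway, fell by 1.72 ± 0.23, IGF2 by 0.53 ± 0.07 and IGFBP7 by 0.80 ± 0.08. IGF-I did not reach the level needed for a test: it ran from 0 to 0.621 CPM at LP and from 0.102 to 0.568 CPM at EL.

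Genes of the translation factor list rose more often than they fell. Of 25 tested, 15 rose, 2 fell and 8 did not pass (median 0.23). The 15 include EIF4EBP1, a brake on translation, which is also counted under growth signalling. EEF2, elongation factor 2, ran from 1203 to 1585 CPM at LP and from 1642 to 2634 CPM at EL, ranges that did not overlap (0.59 ± 0.07, adjusted p = 1.83e-06). EIF4B rose by 0.65 ± 0.07 and WBSCR1, initiation factor 4H, by 0.94 ± 0.08, and EEF1A2, the elongation factor form of muscle and neurons, fell by 0.41 ± 0.07. Of the ribosomal protein genes 6 of 78 rose, 3 fell and 69 did not pass, with a median of 0.05; with library totals 73 rose and none fell, and with upper quartile factors 1 rose and 12 fell. Without cows 164 and 419, 2 rose and 3 fell. RPL10A rose by 0.49 ± 0.12, and RPLP1 had a log2 fold change of -0.29 ± 0.06, with the opposite sign on library totals. Many ribosomal protein genes have near-identical copies, and their single values are uncertain. Of 16 endoplasmic reticulum chaperones 9 rose and none fell (median 0.26); with library totals 15 rose, and without cows 164 and 419, 8 rose and 1 fell. The list was led by P4HB, protein disulfide isomerase, at 1.02 ± 0.09, with medians of 167 and 302 CPM and no overlap, and HYOU1 rose by 0.54 ± 0.09.

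Among 21 metallothioneins and antioxidant enzymes 12 rose, 5 fell and 4 did not pass (median 0.28). HMOX1, heme oxygenase 1, ran from 20.9 to 54.0 CPM (median 28.4) at LP and from 70.7 to 262 CPM (median 160) at EL, 5.19-fold up with no overlap (2.37 ± 0.17, adjusted p = 1.54e-08). SRXN1, sulfiredoxin, rose by 2.59 ± 0.23, and the ferritin chains FTL and FTH1 by 1.40 ± 0.13 and 0.47 ± 0.10. Among the 5 that fell were PRDX3, the peroxidase of the mitochondrial matrix, by 0.86 ± 0.08, SOD2, the superoxide dismutase of the matrix, by 0.71 ± 0.09, and PRDX2, a peroxidase of the cytosol, by 0.70 ± 0.09. TFRC, the transferrin receptor, through which cells take up iron, had the lowest log2 fold change among the genes taken by the rule on large changes given further on: it ran from 29.4 to 524 CPM (median 130) at LP and from 5.87 to 174 CPM (median 13.5) at EL (-2.93 ± 0.51, adjusted p = 0.000116).

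Amino acid transport and metabolism divided by gene. SLC7A8, a transporter of neutral amino acids, ran from 3.65 to 104 CPM (median 20.9) at LP and from 70.8 to 471 CPM (median 287) at EL. It rose in 16 of 16 cows, 12.7-fold (3.66 ± 0.35, adjusted p = 3.46e-07), with overlapping ranges. Of 9 genes of amino acid interconversion 1 rose, GLUL, and 7 fell (median -0.36, or 0.00 with library totals). AMPD1, muscle AMP deaminase, fell by 2.09 ± 0.31 and HIBADH, of valine breakdown, by 0.80 ± 0.07 with ranges that did not overlap. In the ATF4 list, which marks the response to amino acid shortage, 5 of 14 rose, 3 fell and 6 did not pass (median -0.07, or 0.30 with library totals). Without cows 164 and 419, 4 rose and 5 fell. GTPBP2 rose by 0.97 ± 0.11 and NUPR1 by 0.85 ± 0.17, and ASNS, asparagine synthetase, fell by 0.47 ± 0.16 from a median of 2.98 CPM.

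By a fixed rule the 12 largest rises and the 12 largest falls were also read, among called genes with a name, at least 10 CPM at the higher time-point and the same direction in at least 15 cows. Rises not yet given were SCN3B, a sodium channel subunit (2.27 ± 0.31), FOSL2, an AP-1 factor (2.18 ± 0.29), DDO, D-aspartate oxidase (2.10 ± 0.19), and SORT1, the sorting receptor sortilin (1.98 ± 0.23). Falls not yet given were GADL1, of beta-alanine and carnosine synthesis (-2.88 ± 0.31), GAMT, of creatine synthesis (-2.09 ± 0.17), ANKRD23, a titin-binding repeat protein (-2.09 ± 0.22), FAM47E-STBD1, whose STBD1 part binds glycogen (-2.03 ± 0.20), CCDC80, a matrix protein (-2.05 ± 0.22), and GPD1, of the glycerol phosphate shuttle (-1.95 ± 0.23). GADL1 went from a median of 214 to 23.2 CPM. GAMT, ANKRD23, FAM47E-STBD1 and GPD1 had ranges that did not overlap between LP and EL, as did DDO.

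Markers of the cell types in a muscle punch were read beside these results. In bulk tissue fewer cells of a type and less RNA per cell cannot be told apart. The summed level of 11 skeletal muscle fibre markers ran from 172541 to 275680 CPM at LP and from 39854 to 244740 CPM at EL and was lower in 15 of 16 cows; 10 of the 11 fell and DES did not. Fibroblast markers with a name, 4 of the 8 listed, also declined: 4 of 4 fell (median -1.33), PI16 among them by 1.64 ± 0.21. Their sum ran from 180 to 435 CPM at LP and from 64.2 to 282 CPM at EL. Of 8 extracellular matrix genes 6 fell and none rose (median -0.65), or 3 fell and 1 rose with library totals (median -0.29), with COL1A1, the main collagen, at -1.82 ± 0.22 and FN1, fibronectin, at -1.15 ± 0.17; the part of fibroblast number in this was not tested. COL1A1, DCN and LUM, 3 of the 4 fibroblast markers, are on both lists. Of the 25 genes listed for the matrix 8 could be tested.

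Endothelial markers were divided, with 1 of 6 up and 2 down (median -0.04, or 0.32 with library totals; sum 98.2 to 172 CPM at LP and 115 to 229 CPM at EL), VWF rising by 0.52 ± 0.10 and CLDN5 falling by 0.40 ± 0.11. Of 5 smooth muscle markers 3 fell and none rose, and none fell with library totals (median -0.49 and -0.13; sum 782 to 1287 and 611 to 1373 CPM), among them LMOD1, leiomodin 1, at -0.57 ± 0.14. Of 5 adipocyte markers tested 2 fell and none rose (median -0.08, or 0.29 with library totals), with ADIPOQ, adiponectin, at -0.996 ± 0.34; the sum of 7 identifiers ran from 81.4 to 194 CPM at LP and from 61.4 to 161 CPM at EL. Blood cell markers had low values. The sum of 3 hemoglobin genes reached at most 6.22 CPM, but HBA has copies among them, and reads shared between copies leave such values uncertain. That of 7 neutrophil markers ran from 0.379 to 3.37 CPM at LP and from 0.887 to 17.3 CPM at EL, with CATHL1, CATHL2 and CATHL3 at 0 throughout. LTF, lactoferrin, the 1 neutrophil marker tested, rose by 0.89 ± 0.30 and did not pass without cows 164 and 419. None of 3 macrophage markers tested passed, with MARCO at 0 (sum of 5 genes 3.86 to 26.1 and 2.39 to 50.6 CPM), and of 4 lymphoid markers tested 1 fell (sum of 9 genes 4.61 to 35.5 and 2.68 to 28.9 CPM). Of 10 hepatocyte markers 2 could be tested and neither passed; their sum was highest in the EL library of cow 996, at 48.1 CPM.

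The cows differed in how far they moved. For each cow the genes called in the other 15 were taken and their change in that cow was read in the called direction. Between 72% (cow 430) and 94.4% (cow 829) of these genes moved the same way, with a median over cows of 86.4%. The median change in the called direction ran from 0.21 in cow 164 to 0.71 in cow 419 on the log2(CPM + 1) scale. The median of the thick filament genes fell in 15 of 16 cows, from -2.35 in cow 1179 to 0.07 in cow 430, and that of glycolytic enzymes fell in 16 of 16, from -2.06 in cow 982 to -0.09 in cow 782. The median of the 19S cap rose in 15 cows, up to 1.02 in cow 419, and fell by 0.41 in cow 430, while the median of the glucocorticoid list rose in 16 of 16.

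**Figure D4:**
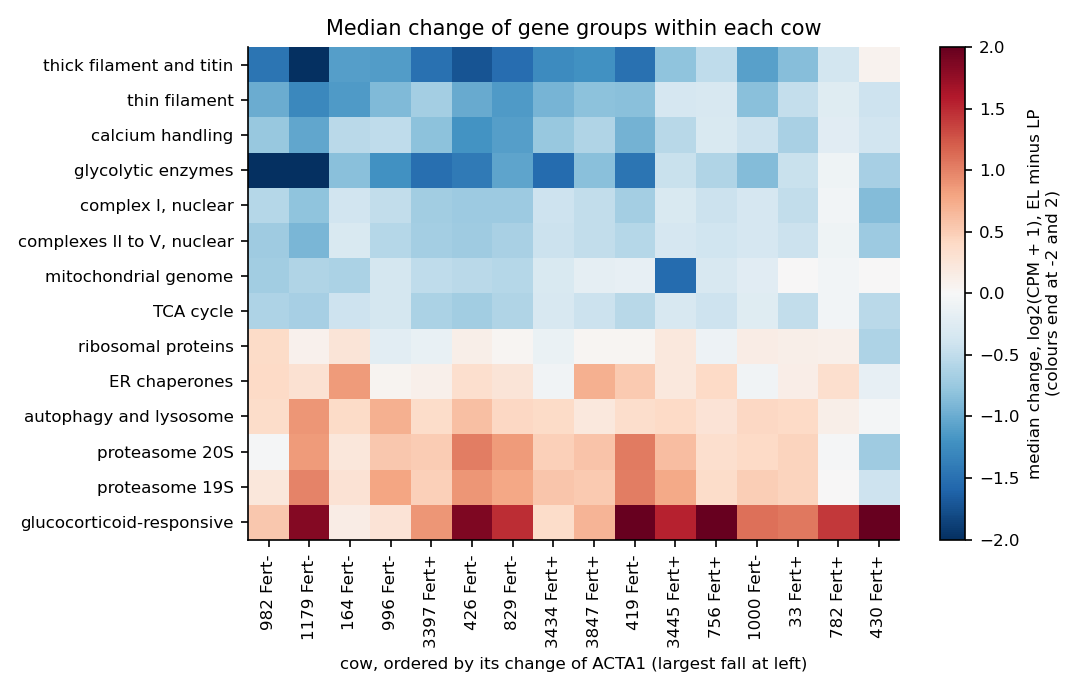
Median change from LP to EL (colour, log2 of CPM + 1) of 14 gene groups (rows) in each of the 16 cows (columns, ordered by their change of ACTA1, largest fall at left; genotype beside the number). The glucocorticoid row is above 0 in every cow, whereas cow 430, at the right end, is the 1 cow below 0 for the 19S group and the 1 cow above 0 for the thick filament group.

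The response was then compared between genotypes. For ACTA1 the log2 fold change was -1.65 in the 8 Fert+ cows and -2.94 in the 8 Fert- cows, a difference of 1.28 ± 0.40 (adjusted p = 0.479), and for FBXO32 it was 0.76 and 1.75, a difference of -1.01 ± 0.44 (adjusted p = 0.556). For PDK4 the values were 2.08 and 1.22 (difference 0.84 ± 0.49, adjusted p = 0.653), and for TRIM63 2.77 and 2.64 (difference 0.11 ± 0.62, adjusted p = 0.975). None of the 12013 genes passed in the edgeR test of the interaction; 1031 were under an unadjusted p of 0.05, and the smallest adjusted p was 0.166. DESeq2 called 33 genes.

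The signed change of ACTA1 from LP to EL was related to that of 4 other genes over the 16 cows. ACTA1 fell in all 16, so a negative r means that a larger fall of ACTA1 went with a larger rise of the other gene. A positive r means that a larger fall went with a smaller rise or a fall. For PSMD4 Pearson's r was -0.54 (permutation p = 0.029, adjusted p over the 4 relations = 0.058) and Spearman's rho -0.40 (permutation p = 0.126, adjusted p = 0.252), and for PDK4 r was 0.64 (permutation p = 0.006, adjusted p = 0.024) and rho 0.59 (permutation p = 0.0167, adjusted p = 0.0667). For FBXO32 r was -0.03 (permutation p = 0.909, adjusted p = 0.909) and rho 0.00 (permutation p = 0.996, adjusted p = 0.996), and for TRIM63 r was 0.26 (permutation p = 0.328, adjusted p = 0.437) and rho 0.09 (permutation p = 0.752, adjusted p = 0.996). Without cows 982 and 430, which lay farthest from the median of ACTA1, r was -0.62 for PSMD4, 0.49 for PDK4, -0.31 for FBXO32 and -0.01 for TRIM63, and none of the 4 passed after adjustment (for PDK4 permutation p = 0.0746, adjusted p = 0.149). Within genotypes r for PSMD4 was -0.88 in Fert+ and 0.22 in Fert- cows, and r for PDK4 was 0.57 and 0.54. Without cows 164 and 419 r was -0.67 for PSMD4 and 0.61 for PDK4. Those 2 cows alone are too few for a value.

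**Figure D5:**
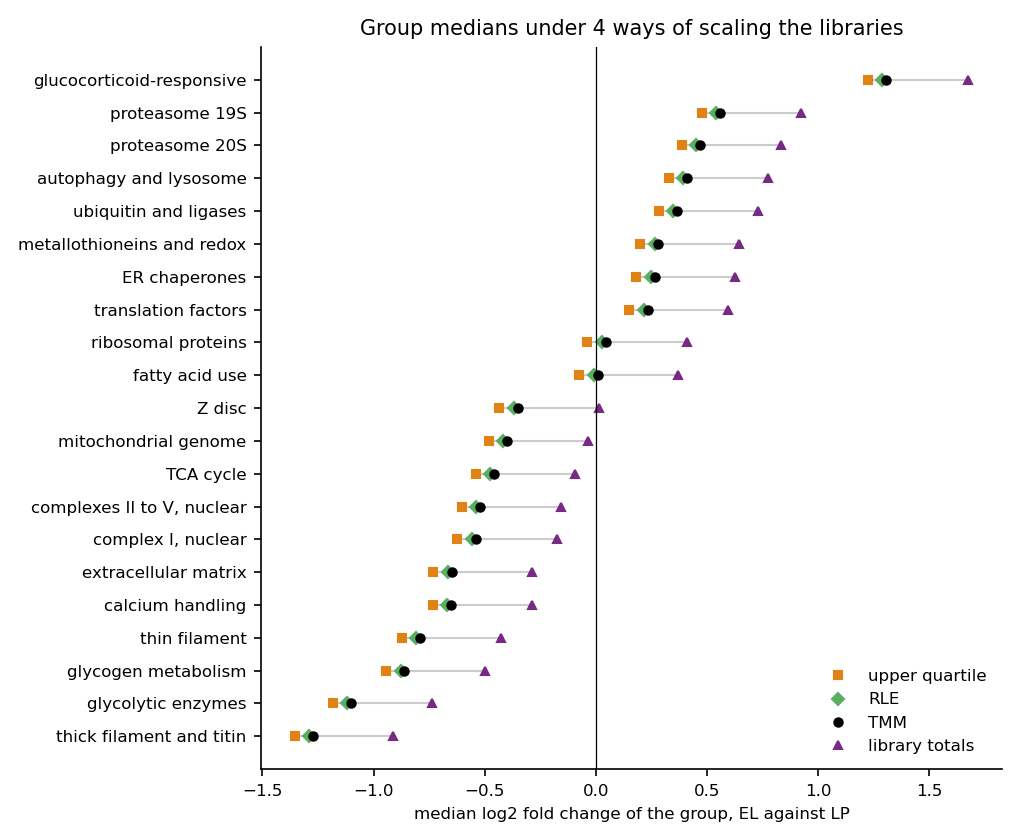
Median log2 fold change from LP to EL (x axis) of the 21 gene groups under 4 ways of scaling the libraries (symbols). Library totals lie to the right of the other 3; the Z disc median, -0.35 with TMM, is 0.01 with library totals.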

How the data were processed

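Groups came from the labels and the pairing from the cow number in the titles, which marks 1 animal. Per the labels the authors used CASAVA 1.8, STAR with UMD3.1, featureCounts and edgeR; the deposited values are raw counts per gene for 24616 Ensembl identifiers. Counts were analysed in R 4.3.3 with edgeR 4.0.16 (genes kept by filterByExpr, TMM factors, robust quasi-likelihood fit with cow and time-point, Benjamini-Hochberg over all genes tested), with 15 residual degrees of freedom and a biological coefficient of variation of 22.9%; SE is the log2 fold change over the root of F. Relations used 100000 permutations (exact enumeration within genotypes). All tests took both directions. Residuals of a cow's 2 libraries correlated above 0.1 in 12 of 16 pairs (median 0.27).

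The members and gene lists were chosen with earlier results of these data known. Genes were named by a rule: the 12 largest rises and falls, per list the 3 rises and 3 falls with the smallest p and the 2 highest means, all markers and a panel. Names for 2160 identifiers came from the study's gene tables, which hold genes picked between genotypes and abundant genes; no coordinates are given, since no annotation of the files' build was used here. Whole-series tables with 96 columns were not used, as their columns name no sample. Alternatives were DESeq2 1.42.0, other scalings, filters, dispersions and sample sets, and each cow left out; the test was tried on simulated counts. Values of some genes are not reported here.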

Additional observations from a re-analysis of the deposited data

How the results depend on the processing

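Against 6494 genes called, separate fits called 6145 without the replicate block (cow) and from 6063 (without cow 419) to 6658 (without cow 430) when a cow was left out; genes that rose then ranged from 3032 to 3472 and genes that fell from 2885 to 3186. Fert+ cows alone gave 3715 calls (1871 up, 1844 down), the 1.5-fold test 728 (290 up, 438 down) and library totals 7031 up and 956 down. Without the block FOSB, ANKRD1 and ADIPOQ lost their call and ACSL1 gained one, and no other named gene changed its call. For the response of the genotypes DESeq2 gave 33 genes and the fit without cows 164 and 419 gave 1, against 0; the cause was not tested. Among relations with ACTA1, PSMD4 reached r = -0.658 with library totals, -0.67 without cows 164 and 419, -0.881 in Fert+ and 0.221 in Fert- cows; PDK4 reached 0.487 without cows 982 and 430, 0.574 in Fert+ and 0.542 in Fert- cows; TRIM63 reached -0.013 without cows 982 and 430; and FBXO32 0.372 in Fert+ and 0.465 in Fert- cows. For these relations the sets without cows 164 and 419 and within genotypes were chosen after seeing the data. Over 142 named genes and 29 alternatives 3981 of 4116 values kept direction and side of the threshold, 110 lost it, 14 gained it and 11 turned. Those that turned were, with library totals, TTN (0.0379), RYR1 (0.159), PPARGC1A (0.211), ANGPTL4 (0.035), PINK1 (0.149) and RPLP1 (0.0727); in Fert+ cows RYR1 (0.0209), PPARGC1A (0.312) and ANGPTL4 (0.0104); without the block PPARGC1A (0.562); and with upper quartile factors DES (-0.0224). Genes under about 1 CPM, such as IGF-I, are limited by depth, and n = 16 pairs sets the precision of the rest.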

Other observations

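Other gene groups moved little or in both directions. Of 19 immediate early genes 4 rose, 4 fell and 11 did not pass (median log2 fold change 0.44); without cow 3445, 7 rose and 3 fell. The nuclear receptors NR4A1 and NR4A2 fell by 1.45 ± 0.26 and 1.92 ± 0.45, with NR4A1 at a median of 200 CPM at LP and 59.9 CPM at EL, and FOSB fell by 2.25 ± 0.80 in 13 of 16 cows. MYC and the antiproliferative BTG1 rose by 1.60 ± 0.42 and 1.25 ± 0.19. Among 11 genes of the neuromuscular junction, denervation and myogenic regulation 2 rose, 4 fell and 5 did not pass (median -0.52). MYF6, the myogenic factor of mature fibres, rose in 16 of 16 cows, from a median of 72.2 to 178 CPM (1.41 ± 0.27, adjusted p = 0.000266), and MUSK, the receptor kinase of the junction, rose by 0.82 ± 0.26. CHRNE, the adult acetylcholine receptor subunit, fell in 16 of 16 cows (-1.62 ± 0.14, adjusted p = 4.76e-08), MYOG, myogenin, fell by 1.15 ± 0.36 and ANKRD1 by 0.68 ± 0.28, a call that was lost without cow 3445 and without cows 164 and 419.

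Of 13 heat shock genes 4 rose, 3 fell and 6 did not pass (median 0.19), and 1 rose without cows 164 and 419 and 2 without cow 3445, with HSPE1, the mitochondrial co-chaperonin, up by 0.41 ± 0.10 and HSPB6 down by 0.89 ± 0.10. Of 28 inflammation identifiers 13 could be tested: 1 rose, 4 fell and 8 did not pass, and without cows 164 and 419 none rose and 3 fell. IL1B, a cytokine, ran from 1.12 to 8.93 CPM (median 2.52) at LP and from 0 to 2.31 CPM (median 0.268) at EL and fell in 16 of 16 cows (-2.85 ± 0.33, adjusted p = 1.25e-06). Of 9 interferon-stimulated genes 1 rose, none without cow 3445, and none fell. Of 24 cell cycle genes 7 could be tested, of which 2 rose, AURKA among them (1.01 ± 0.16), and 2 fell. Of 4 clock genes 2 fell, NR1D1 by 0.60 ± 0.15; the hour of each biopsy is not given in the labels. Of 3 genes of the PGC-1 axis 1, LPIN1, rose and none fell.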
